A study of Mus musculus with 12 samples.

Results

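The genes described here are 8 products of Paneth cells, the secretory cells at the base of small intestinal crypts. They were chosen by name, as the rows whose Ensembl identifiers map to Lyz1, Defa17, Defa22, Defa24, Defa30, Mmp7, Ang4 and Itln1, and make up 8 of the 55487 genes in the tables and 8 of the 19581 genes tested. RNA sequencing covered 12 libraries of C57BL/6 mice in 4 groups of 3: SI crypts and LI crypts, freshly isolated from the small intestine (SI) and large intestine (LI), and SI monolayers and LI monolayers, grown from crypts of either organ for 24 h in control medium. No drug, transgene or deletion was involved in any group. Per the study's methods, crypt libraries came from 3 mice per organ and monolayer libraries from 3 pools of wells, and monolayers were seeded on Matrigel and moved some hours later from a seeding medium to one with Wnt3a, EGF, Noggin and R-spondin, from mice of either sex aged 6 to 10 weeks. SI monolayers were seeded from jejunal crypts released with EDTA, and LI monolayers from large intestine of the same mice that was digested with collagenase and dispase before EDTA, so that organ and isolation method cannot be told apart. The sources used here do not say whether the pools of wells came from separate mice, so the spread between monolayer libraries may be technical.

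Paneth cells guard the stem cells of the small intestinal crypt. They pack lysozyme and alpha-defensins into granules and release them into the crypt lumen, where these proteins damage bacterial membranes and cell walls, and they depend on Wnt signaling for their maturation. The healthy mouse colon holds few or no Paneth cells, and its crypt base is occupied by goblet-like secretory cells. Lyz1 encodes the Paneth cell lysozyme, which cleaves bacterial cell walls. Defa17, Defa22, Defa24 and Defa30 encode alpha-defensins, which are made as inactive precursors, and Mmp7 encodes matrilysin, the protease that cuts mouse alpha-defensin precursors into active peptides. Ang4 encodes an angiogenin, a ribonuclease with bactericidal activity that is also made by goblet cells. Itln1 encodes intelectin, a lectin that binds microbial sugars and is also known from goblet cells.

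The 4 alpha-defensin genes share most of their sequence, and the differences decide how far reads can be assigned to one of them. Their coding sequences, from GENCODE M21 transcripts, are each 282 bases long and are printed in lower case from start to stop codon, with capitals at the 59 positions where the 4 genes are not all alike.
Defa17: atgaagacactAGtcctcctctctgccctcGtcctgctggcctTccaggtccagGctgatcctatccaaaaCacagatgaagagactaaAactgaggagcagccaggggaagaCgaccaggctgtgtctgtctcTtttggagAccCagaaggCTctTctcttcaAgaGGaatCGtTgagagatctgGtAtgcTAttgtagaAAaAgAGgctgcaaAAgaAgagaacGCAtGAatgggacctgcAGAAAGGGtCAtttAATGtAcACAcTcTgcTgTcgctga
Defa22: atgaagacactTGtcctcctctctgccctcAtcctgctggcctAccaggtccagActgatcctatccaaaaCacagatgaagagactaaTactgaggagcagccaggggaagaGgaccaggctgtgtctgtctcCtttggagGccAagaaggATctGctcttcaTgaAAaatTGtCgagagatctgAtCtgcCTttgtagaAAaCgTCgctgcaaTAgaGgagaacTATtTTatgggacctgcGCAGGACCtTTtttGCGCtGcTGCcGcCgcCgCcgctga
Defa24: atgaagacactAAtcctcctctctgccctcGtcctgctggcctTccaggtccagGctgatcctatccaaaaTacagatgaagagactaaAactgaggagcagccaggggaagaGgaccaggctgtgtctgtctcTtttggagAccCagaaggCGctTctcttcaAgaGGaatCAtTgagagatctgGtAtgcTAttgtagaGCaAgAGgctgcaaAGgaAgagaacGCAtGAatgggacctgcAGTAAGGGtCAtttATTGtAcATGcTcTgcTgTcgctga
Defa30: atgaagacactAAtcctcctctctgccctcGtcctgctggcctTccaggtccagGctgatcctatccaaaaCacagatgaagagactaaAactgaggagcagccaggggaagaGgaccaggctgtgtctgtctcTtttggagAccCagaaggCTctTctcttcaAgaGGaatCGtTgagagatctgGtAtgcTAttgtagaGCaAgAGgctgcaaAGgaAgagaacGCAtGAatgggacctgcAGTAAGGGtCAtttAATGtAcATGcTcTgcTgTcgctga
The capitals gather in the second part of the sequence, which encodes the released peptide. Defa24 and Defa30 were identical at 98.6% of positions, Defa17 matched Defa30 at 97.2% and Defa24 at 95.7%, and Defa22 matched the other 3 at 80.5% to 81.9%. On GRCm38 the 4 genes lie on the plus strand of chromosome 8, Defa30 at chr8:21134642-21135598, Defa22 at chr8:21162277-21163249, Defa17 at chr8:21655780-21656735 and Defa24 at chr8:21734494-21735471. The other 4 genes are spread over the genome, with Itln1 at chr1:171518122-171535294 and Lyz1 at chr10:117287797-117292868 on the minus strand, Mmp7 at chr9:7692090-7699585 on the plus strand and Ang4 at chr14:51763878-51773590 on the minus strand. Of the stretches of 50 bases in each gene's transcripts, 100% of Mmp7, 99% of Itln1, 95.3% of Ang4 and 83.9% of Lyz1 occurred in no other gene. The same share was 71.9% for Defa24, 47.6% for Defa30, 25.1% for Defa22 and 8.05% for Defa17, whose coding sequence is 100% identical to that of Defa3. How reads that match several genes were counted is not given in the sources used here, so levels of single alpha-defensins, Defa17 above all, are uncertain.

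Libraries held 59016196 to 76216530 counts, so that 3 counts correspond to 0.0394 to 0.0508 CPM (counts scaled to the library total). The organ labels were checked with 6 large intestine markers, among them Car1, Aqp8 and Hoxb13, and 6 of 6 were lower in SI than in LI both in crypts and in monolayers. Of all tested genes, 11.1% were called lower in SI crypts and 8.88% in SI monolayers. The 8 genes together took 1.43% ± 1.18 (SD, n = 3) of all counts in SI crypts, 0.851% ± 0.0305 in SI monolayers, 0.0662% ± 0.0286 in LI crypts and 0.00854% ± 0.00124 in LI monolayers. The SI crypts held 0.515%, 1.02% and 2.76% in replicates 1 to 3, and their mean without replicate 3 was 0.765%, below that of the SI monolayers, so the order of the SI groups rests on that library. In these bulk libraries, fewer Paneth cells and less RNA per Paneth cell cannot be told apart. Values per library are normalized counts, which are counts divided by 1 size factor per library.

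Lysozyme was among the most abundant of these products. Lyz1 had normalized counts of 84331, 175374 and 359996 in SI crypts replicates 1 to 3, and of 202941, 196095 and 208632 in SI monolayers. In LI crypts it had 1715, 813 and 501, and in LI monolayers 1618, 1967 and 2003. Every SI library lay far above every LI library, the SI monolayers fell inside the range of the SI crypts, and the LI crypts and LI monolayers overlapped.

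The alpha-defensins followed the same division between organs but not the same division between crypts and monolayers. Defa24 had 79798, 139002 and 422318 normalized counts in SI crypts and 138389, 131212 and 145136 in SI monolayers, against 1499, 447 and 314 in LI crypts and 1036, 1437 and 1381 in LI monolayers. Defa30 had 39657, 80389 and 242246 in SI crypts and 56928, 53575 and 58577 in SI monolayers, against 717, 164 and 118 in LI crypts and 413, 550 and 646 in LI monolayers. For both genes the SI monolayers lay within the range of the SI crypts, as did the LI monolayers within that of the LI crypts. Defa17 had 16580, 28916 and 88839 in SI crypts and 12994, 11514 and 12982 in SI monolayers, against 317, 64.1 and 38.4 in LI crypts and 142, 169 and 228 in LI monolayers. Defa22 had 6825, 19358 and 48637 in SI crypts and 39533, 37176 and 41088 in SI monolayers, against 233, 135 and 85.7 in LI crypts and 299, 339 and 320 in LI monolayers. Thus every SI monolayer library was below every SI crypt library for Defa17, while for Defa22 they lay between the second and the highest SI crypt library.

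The processing protease and the other secreted products were as follows. Mmp7 had 4473, 10527 and 25633 normalized counts in SI crypts and 5089, 5281 and 5504 in SI monolayers, against 353, 759 and 83.9 in LI crypts and 84.7, 113 and 86.0 in LI monolayers. Itln1 had 73294, 143021 and 341815 in SI crypts and 78198, 75104 and 81004 in SI monolayers, against 2246, 2516 and 891 in LI crypts and 761, 1010 and 1017 in LI monolayers. For both genes SI monolayers lay just above the lowest SI crypt library, and LI crypts overlapped with LI monolayers. Ang4 had 65586, 117467 and 297988 in SI crypts, 15422, 14929 and 15331 in SI monolayers, 30042, 62206 and 28064 in LI crypts and 402, 623 and 705 in LI monolayers. The 4 groups did not overlap for Ang4, and it was the member whose LI crypts lay above the SI monolayers.

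**Figure D1:**
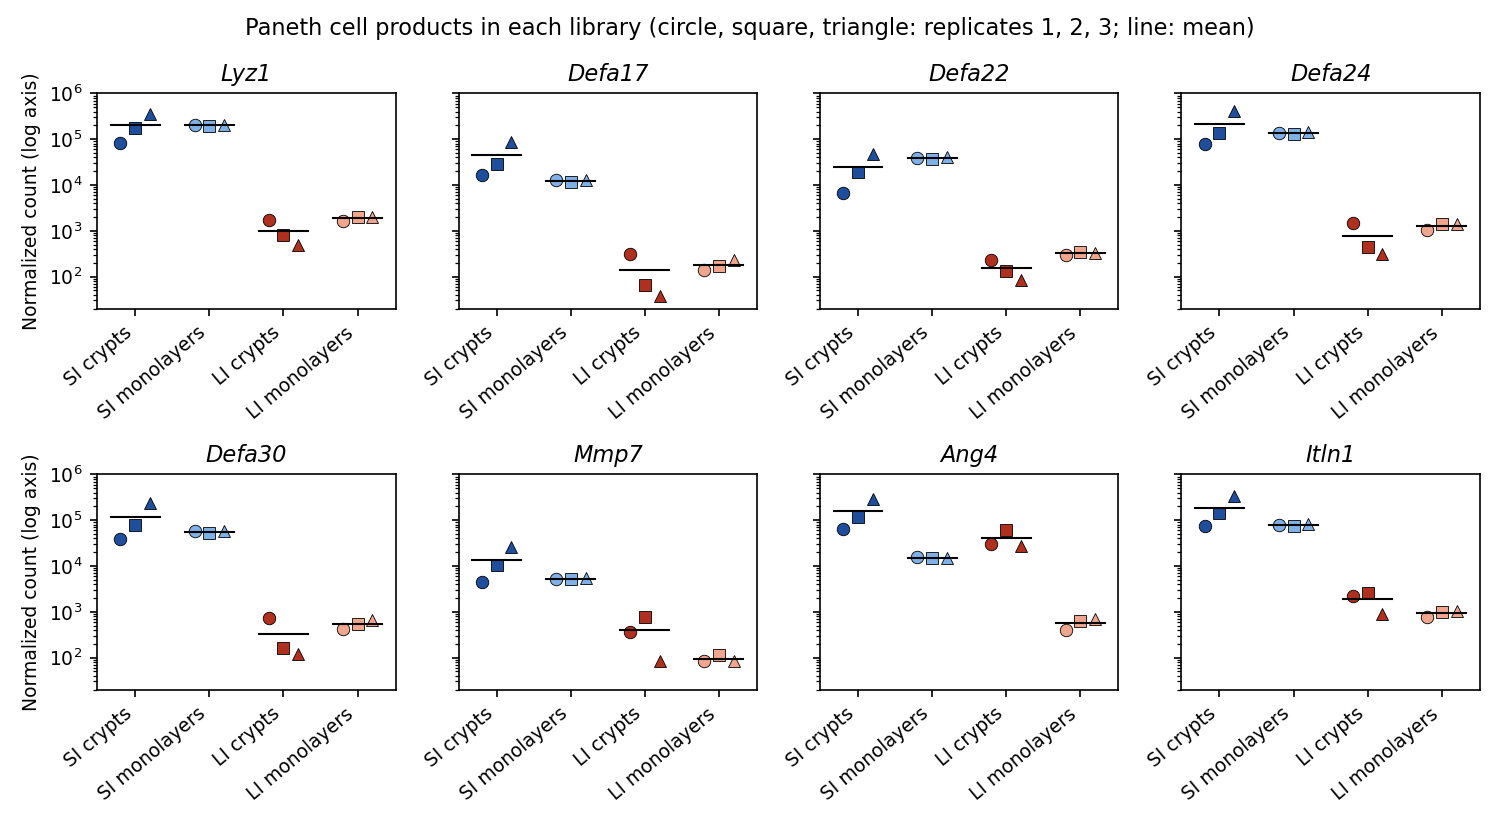
Normalized counts on a log axis of the 8 genes in each of 12 libraries, by group, with a line at each group's mean. All SI libraries lie above all LI libraries of the same preparation, SI crypts spread widely while SI monolayers coincide, and Ang4 in LI crypts holds 28064 to 62206 normalized counts.

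On a scale of normalized counts per kilobase of exon, which allows levels of different genes to be ordered, Defa24 was highest in SI crypts at 510039, followed by Defa30 at 303427, Ang4 at 226159, Lyz1 at 163553, Itln1 at 163053, Defa17 at 112791, Defa22 at 59523 and Mmp7 at 12682. In SI monolayers the order was Defa24 at 329942, Lyz1 at 160377, Defa30 at 141608, Defa22 at 93713, Itln1 at 68450, Defa17 at 31478, Ang4 at 21477 and Mmp7 at 4954. Ang4 thus held the third place in SI crypts and the seventh in SI monolayers, and Defa22 the seventh and the fourth. In LI crypts Ang4 led with 56564 per kilobase, and Defa24 came next with 1798. In LI monolayers the level per kilobase ran from 88.4 for Mmp7 to 3066 for Defa24. These orders were taken within each library and could be compared between replicates. In SI monolayers all 8 places were the same in the 3 libraries, and in SI crypts 6 of 8 were, with Lyz1 and Itln1 trading places 4 and 5. In LI crypts Ang4 was first in 3 of 3 libraries, while the places of the other 7 genes varied, that of Mmp7 from 4 to 8. In LI monolayers Defa24, Defa17 and Mmp7 kept places 1, 7 and 8, and the other 5 genes changed places.

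The first comparison asked which of these products distinguish SI from LI crypts. All 8 were higher in SI crypts, against a background of 11.6% of all tested genes called higher and 11.1% called lower. Calls required an edgeR quasi-likelihood p-value under 0.05 after Benjamini-Hochberg adjustment over 19581 genes, together with a log2 fold change of 1 or more in size. Lyz1 was higher by 7.73 on the log2 scale (SE 0.73, adjusted p = 2.29e-05). The alpha-defensins were higher by 8.56 (Defa30, SE 1.04, adjusted p = 0.000119), 8.38 (Defa17, SE 0.99), 8.20 (Defa24, SE 0.94) and 7.42 (Defa22, SE 0.81). Itln1 was higher by 6.67 (SE 0.70) and Mmp7 by 5.13 (SE 0.85). Ang4 stood apart, with a difference of 2.04 (SE 0.56, adjusted p = 0.0141), a 4.12-fold higher level in SI. The Ang4 call was lost without LI crypts replicate 1 (adjusted p = 0.0518) or replicate 3 (0.0530) and in a fit of the 2 groups alone (0.0886), with log2 fold changes of 1.85 to 1.98.

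The same question in culture gave a more even answer. All 8 genes were higher in SI monolayers than in LI monolayers, where 12.4% of tested genes were called higher and 8.88% lower. Defa22 was higher by 6.97 on the log2 scale (SE 0.78), Lyz1 by 6.79 (SE 0.70), Defa24 by 6.78 (SE 0.89) and Defa30 by 6.75 (SE 0.96, adjusted p = 0.000351). Itln1 was higher by 6.42 (SE 0.70), Defa17 by 6.15 (SE 0.91), Mmp7 by 5.85 (SE 0.95) and Ang4 by 4.75 (SE 0.65, adjusted p = 0.000269). The members thus differed between organs by 26.98-fold (Ang4) to 125-fold (Defa22) in monolayers. They passed the filter on low counts in the LI libraries alone, with a lowest count of 43 (Defa17), so these fold changes do not rest on libraries at 0. Their standard errors come from 1 model of all 4 groups and so also hold the spread between crypt libraries. For Defa22 the ratio of highest to lowest library was 7.13 in SI crypts, 1.105 in SI monolayers and 1.131 in LI monolayers.

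The second question was what 24 h of culture did to the products. In SI, 1 of the 8 genes was called, Ang4, which was lower in monolayers, with a log2 fold change of -3.37 (SE 0.59, adjusted p = 0.0011), a 10.3-fold difference. Of all tested genes, 16.4% were called lower and 9.71% higher in this comparison. The largest of the other differences were -1.81 for Defa17 (SE 0.71, adjusted p = 0.0554), -1.33 for Mmp7 (SE 0.71, adjusted p = 0.141) and -1.22 for Itln1 (SE 0.55, adjusted p = 0.0899). Defa30 had -1.07 (SE 0.74), Defa24 -0.60 (SE 0.69), Lyz1 0.00 (SE 0.54) and Defa22 0.69 (SE 0.59). With standard errors of 0.54 to 0.74 on the log2 scale, these 7 differences could not be told from 0 at the threshold used. Without SI crypts replicate 3, Defa22 was called higher (1.63, adjusted p = 0.0159), and without replicate 1, Defa17 (-2.21, adjusted p = 0.0227) and Itln1 (-1.60, adjusted p = 0.0220) were called lower.

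In LI, Ang4 was again the 1 gene called and fell by 6.08 on the log2 scale in monolayers (SE 0.69, adjusted p = 4.56e-05), a 67.5-fold difference, where 23.5% of tested genes were called lower and 14.5% higher. Mmp7 had -2.04 (SE 0.96, adjusted p = 0.0914) and Itln1 -0.97 (SE 0.57). Lyz1 had 0.94 (SE 0.57, adjusted p = 0.175) and the 4 alpha-defensins between 0.42 (Defa17) and 1.13 (Defa22, adjusted p = 0.211). Without LI crypts replicate 1, Lyz1 was called higher (1.54, adjusted p = 0.0485), and without replicate 3, Mmp7 was called lower (-2.52, adjusted p = 0.0334). The change with culture differed between organs for Ang4, by 2.71 (SE 0.80, adjusted p = 0.0225 for the interaction), where 11.4% of tested genes had a called interaction above 0 and 8.51% one below 0. This call was lost without SI crypts replicate 2 (2.52, adjusted p = 0.0547), LI crypts replicate 2 (2.25, adjusted p = 0.0510) or LI monolayers replicate 1 (2.60, adjusted p = 0.0510). The interaction of the other 7 genes lay between -2.24 (Defa17, SE 1.16) and 0.71 (Mmp7, SE 1.20) and was not called, while without LI crypts replicate 1 it was called for Defa17 (-3.66, adjusted p = 0.0363) and Defa30 (-3.03, adjusted p = 0.0464).

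**Figure D2:**
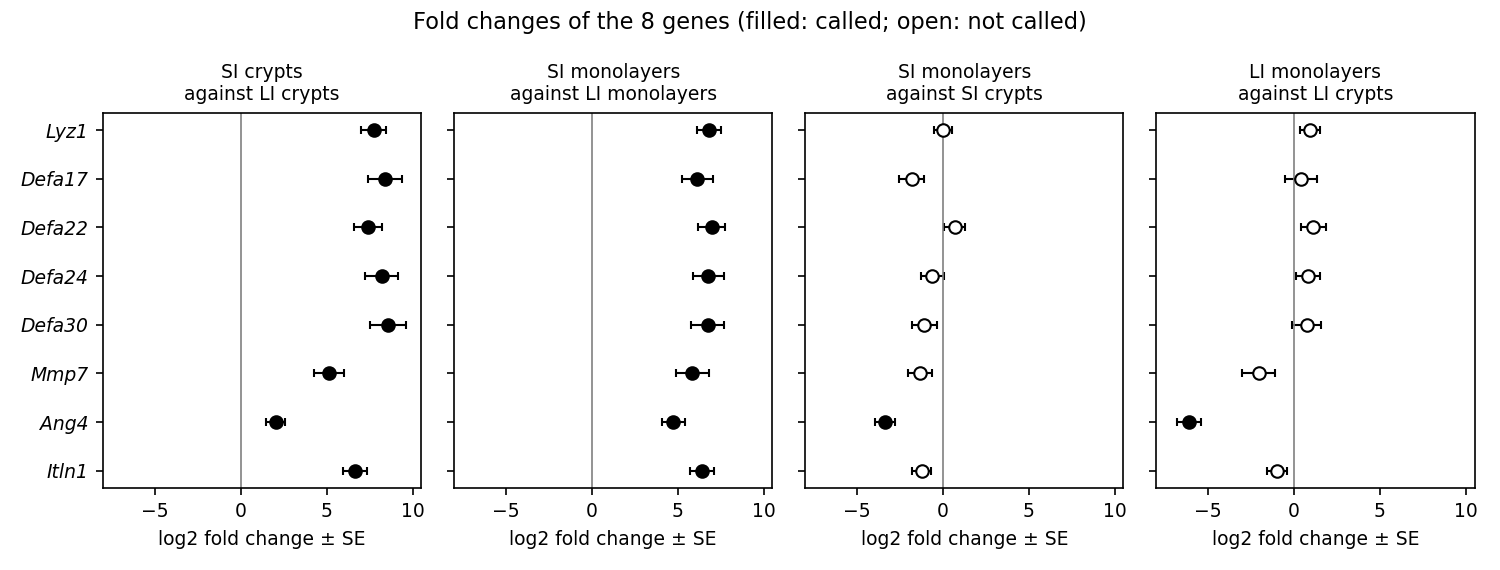
log2 fold changes with standard errors of the 8 genes in 4 comparisons, filled where called. All 8 points lie above 0 in both SI against LI comparisons, and Ang4 is the filled point in each monolayer against crypt comparison.

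Within the SI crypts the 8 genes moved together. Replicate 1 was lowest and replicate 3 highest for each of them, and the ratio of highest to lowest ran from 4.27 for Lyz1 to 7.13 for Defa22, with a median of 5.33 against 1.26 for all tested genes. In SI monolayers the same ratio was 1.03 for Ang4 to 1.13 for Defa17. The other alpha-defensins spread alike, and 25 of 26 with counts in all SI crypt libraries were higher in replicate 3 than in replicate 1, with a median ratio of 5.67. The ratio of replicate 3 to replicate 1 had a median of 1.64 for goblet cell markers (10 of 10 higher), 1.12 for 14 regulators of Paneth cells and 0.68 for 12 enterocyte markers of the small intestine (1 of 12 higher). The enterocyte marker Lct, the lactase gene, ran in the opposite order, with 58064, 45444 and 23899 normalized counts. Whether these libraries differed in the share of crypt base and villus material was not tested.

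Taking each gene relative to Lyz1 in the same library removes the part of this spread that the members shared. Per 100 normalized counts of Lyz1, Ang4 had 77.8, 67.0 and 82.8 in SI crypts and 7.60, 7.61 and 7.35 in SI monolayers. Itln1 had 86.9, 81.6 and 95.0 in SI crypts and 38.5, 38.3 and 38.8 in SI monolayers. Defa22 was the gene that stood higher in monolayers, with 8.09, 11.0 and 13.5 in SI crypts and 19.5, 19.0 and 19.7 in SI monolayers. Defa17 averaged 20.3 ± 4.13 (SD, n = 3) in SI crypts and 6.17 ± 0.270 in SI monolayers, Defa30 53.4 ± 12.1 and 27.8 ± 0.429, Defa24 97.1 ± 19.1 and 68.2 ± 1.33, and Mmp7 6.14 ± 0.916 and 2.61 ± 0.0952. For all 7 genes the SI crypt and SI monolayer libraries did not overlap on this scale. The scale was chosen after the values were seen and is given as a description without a test.

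**Figure D3:**
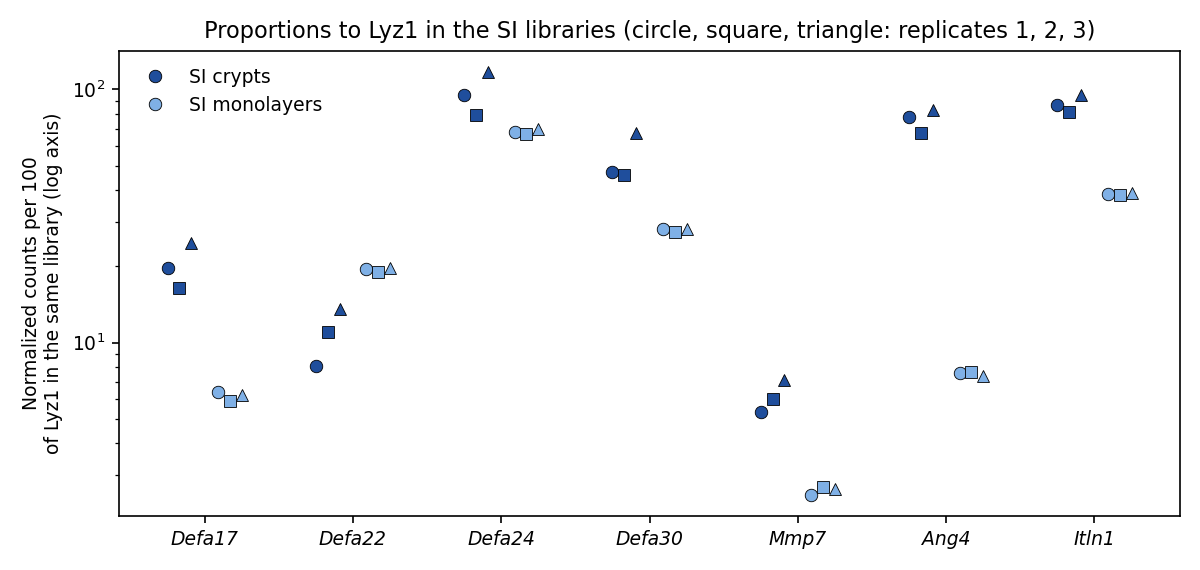
Normalized counts per 100 of Lyz1 in the same library, on a log axis, in 3 SI crypt and 3 SI monolayer libraries. Defa22 sits higher in monolayers, the other 6 genes sit lower, and Ang4 shows the widest gap.

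The other alpha-defensin genes were set beside the contrast between Defa22 and the other 3. Of 35 other genes and pseudogenes named Defa, 22 were tested, and in SI monolayers against SI crypts 1 rose, 9 fell and 12 were not called, with a median log2 fold change of -0.70 against -0.05 for all tested genes. With all 12 libraries in the fit, 16.4% of all tested genes were called lower and 9.71% higher, which also stands beside the counts of called genes that follow. The protein-coding members were then grouped by coding sequence, at a minimum identity of 85% to Defa22 or to Defa24, a grouping made after the fold changes were known. The 6 genes near Defa22, which were Defa2, Defa20, Defa21, Defa22, Defa32 and Defa33, had log2 fold changes of 0.35 to 2.46 with a median of 0.66, and 1 of them, Defa32, was called higher (2.46, SE 0.51, adjusted p = 0.00267). The 8 genes near Defa24, which were Defa3, Defa17, Defa23, Defa24, Defa26, Defa28, Defa30 and Defa31, had -2.89 to -0.60 with a median of -2.03, and 5 of them were called lower. The 6 genes near neither, which were Defa5, Defa29, Defa34, Defa35, Defa36 and Defa37, had -0.70 to 1.37 and none was called, while 1 was called higher with halved counts and with the replicate number as a block. These directions depended on the SI crypt libraries: without SI crypts replicate 3 the medians were 1.62 near Defa22, with 6 of 6 called higher, and -0.99 near Defa24, with 1 of 8 above 0, and without replicate 1 they were 0.23 and -2.43, with 1 of 6 below 0 near Defa22. Of the 6 genes near neither, 3 were called higher and 6 lay above 0 without replicate 3, and 2 were called lower and 4 lay below 0 without replicate 1. Under each of these settings the group near Defa22 had a higher median than that near Defa24. The points are not independent, because near-identical genes can share reads: Defa23 and Defa31 have identical coding sequences, and held 2249 and 2246 counts in SI crypts replicate 1 and 1758 and 1676 in SI monolayers replicate 1. Defa32 and Defa20 also have identical coding sequences, and of either gene 0% of the stretches of 50 bases occurred in no other gene. Defa20 had 0.64 and was not called, so the rise of Defa32 cannot be assigned to that gene with certainty.

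**Figure D4:**
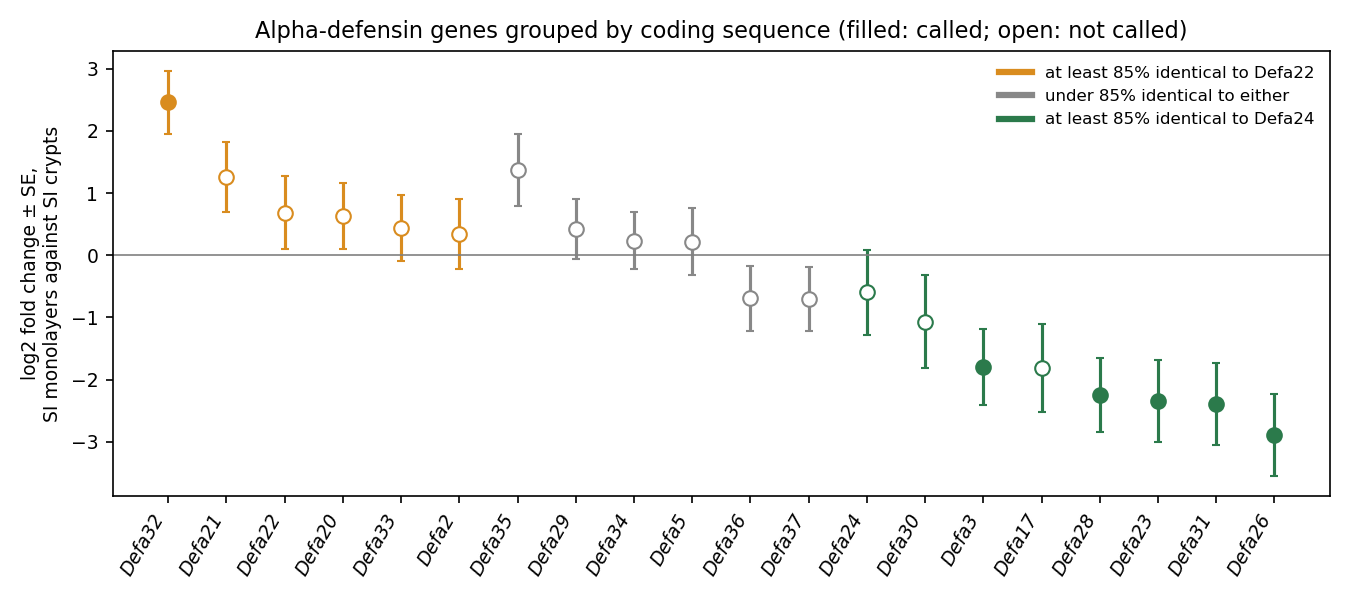
log2 fold change with standard error in SI monolayers against SI crypts of 20 protein-coding alpha-defensin genes, colored by coding sequence and filled where called. All 6 genes near Defa22 lie above 0 and all 8 near Defa24 lie below 0 with all 12 libraries in the fit, while 1 of each group changes sign without SI crypts replicate 1 or 3.

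Upstream sequence was compared for the pair of members on either side of this division that have a RefSeq promoter entry (GRCm38.p6), because Paneth cell genes are known targets of the Wnt effectors of the TCF family. The 250 bases before the annotated start are printed 5′ to 3′ on the plus strand, with capitals at matches to CTTTGA, the core of the TCF motif, or its reverse complement TCAAAG.
Defa22, chr8:21162027-21162276: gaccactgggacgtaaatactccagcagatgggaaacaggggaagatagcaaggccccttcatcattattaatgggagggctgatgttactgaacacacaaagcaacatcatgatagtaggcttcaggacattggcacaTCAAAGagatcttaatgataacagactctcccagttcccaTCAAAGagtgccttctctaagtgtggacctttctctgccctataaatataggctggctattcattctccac
Defa30, chr8:21134400-21134649: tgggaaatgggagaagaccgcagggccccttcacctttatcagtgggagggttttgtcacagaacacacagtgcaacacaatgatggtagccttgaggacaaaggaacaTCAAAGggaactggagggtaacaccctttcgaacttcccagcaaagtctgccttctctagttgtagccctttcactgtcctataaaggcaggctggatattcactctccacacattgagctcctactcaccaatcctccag
The window of Defa22 held 2 matches and that of Defa30 held 1. Of the windows near Defa22, 5 of 5 held 2 matches, of those near Defa24 2 held 2 (Defa23 and Defa31) and 2 held 1, and of the 3 near neither 1 held 2 and 2 held 1, while 13.8% of 32851 windows of this length over all genes held at least 1. Near-identical windows are not independent, and the annotated starts of related genes are not aligned. Windows of Lyz1, Itln1 and Ang4 held no match. For Mmp7 the window upstream of the gene, chr9:7691840-7692089, held no match. A further Mmp7 window, chr9:7692091-7692340, held 1 match but lies inside the gene as annotated in GENCODE M21. The matches describe the sequence and were not tested as binding sites.

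All 8 products were detected in the LI libraries, 7 of them at low levels and Ang4 at a high level in LI crypts, and were expressed for each LI library as a percent of the mean of the 3 SI libraries of the same preparation. In LI monolayers the 7 genes other than Ang4 lay in a narrow band, between 0.733% and 1.60% in replicate 1, 0.862% and 2.13% in replicate 2 and 0.815% and 1.83% in replicate 3. Ang4 lay above this band at 2.64%, 4.09% and 4.63%. Proportions among the members were close to those of SI monolayers for some genes and not for others. Per 100 of Lyz1, LI monolayers held 68.7 ± 4.53 (SD, n = 3) of Defa24, 28.6 ± 3.42 of Defa30 and 17.2 ± 1.26 of Defa22, against 68.2, 27.8 and 19.4 in SI monolayers. The other 4 genes stood higher, Ang4 at 30.6 ± 5.24 against 7.52, Itln1 at 49.7 ± 2.36 against 38.5, Defa17 at 9.57 ± 1.58 against 6.17 and Mmp7 at 5.08 ± 0.725 against 2.61. The SI enterocyte markers were at higher percents, with medians of 6.06%, 8.31% and 7.95% in the 3 LI monolayer libraries. Large intestine markers were in turn found in SI monolayers at medians of 1.70%, 2.29% and 0.688% of their LI monolayer level. Whether these levels are expression by cells of the large intestine or RNA carried over from small intestine was not tested.

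In LI crypts the low levels differed by library and by gene. The medians of the 7 genes other than Ang4 were 0.830%, 0.394% and 0.242% of the SI crypt level in replicates 1, 2 and 3. Replicate 1 was highest for Lyz1 and for all 4 alpha-defensins, at 0.594% for Defa30 to 0.935% for Defa22. In that library SI enterocyte markers were also highest, with a median of 1.23% against 0.464% and 0.0874% in replicates 2 and 3. Olfm4, listed with the stem cell markers, was highest there too, with 451 normalized counts against 11.0 and 5.36. The 6 stem cell markers as a list were not, with medians of 48.8%, 49.1% and 48.0% in replicates 1 to 3. The proportions in replicate 1 were nearer to those of SI crypts, with 87.4 of Defa24, 41.8 of Defa30 and 18.5 of Defa17 per 100 of Lyz1, than were those of replicates 2 and 3, with 55.0 and 62.8 of Defa24, 20.2 and 23.5 of Defa30 and 7.88 and 7.67 of Defa17. The part of SI material in this library was not tested.

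Mmp7, Itln1 and Ang4 did not follow that order in LI crypts. All 3 were highest in replicate 2, at 5.60%, 1.35% and 38.8% of the SI crypt mean, against 2.61%, 1.21% and 18.7% in replicate 1 and 0.620%, 0.479% and 17.5% in replicate 3. The Ang4 level of LI crypts was 1752, 7653 and 5604 per 100 of Lyz1, against 67.0 to 82.8 in SI crypts. On the same scale Mmp7 had 20.6, 93.4 and 16.8 against 5.30 to 7.12, and Itln1 131, 310 and 178 against 81.6 to 95.0. All 3 thus stood above their SI crypt proportion to Lyz1, Ang4 by the most. Goblet cell markers moved with Ang4 in LI: all 10 were lower in LI monolayers than in LI crypts, where 23.5% of tested genes were called lower, with a median log2 fold change of -3.50, among them Fcgbp (-4.37), Zg16 (-4.07) and Clca1 (-3.74). In SI monolayers against SI crypts, 6 of 10 goblet cell markers were lower, against 16.4% of tested genes, with a median of -1.37, and 7 of 10 had a called interaction above 0, against 11.4%. The part of goblet cells in the Ang4 result was not tested.

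**Figure D5:**
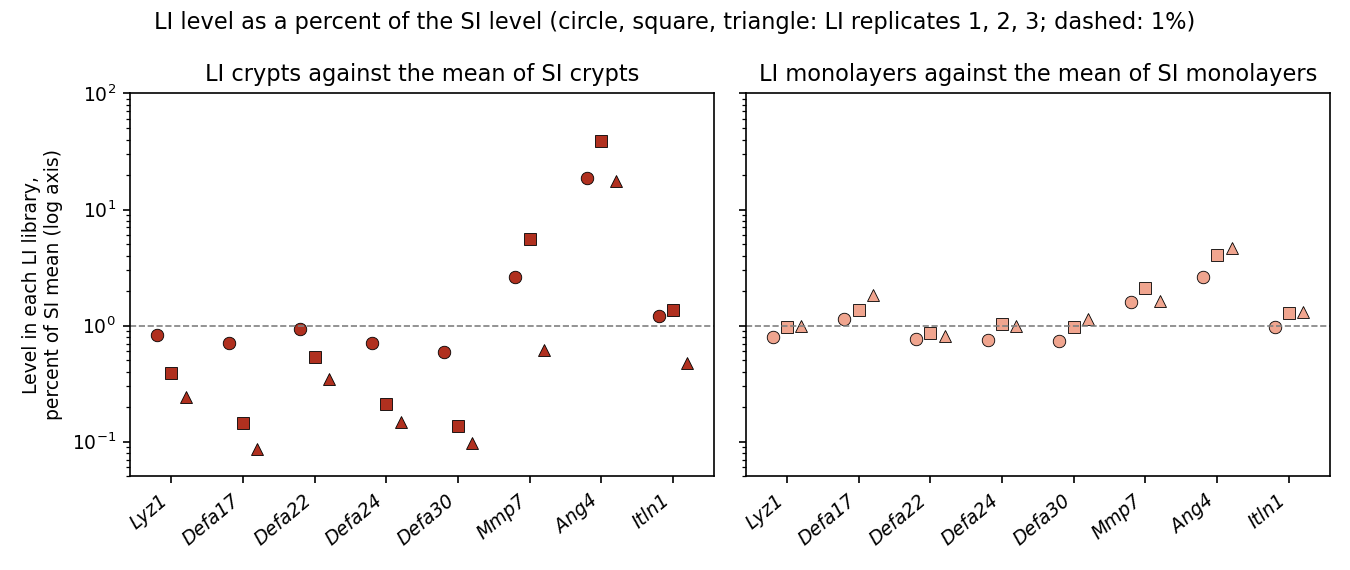
Level of each gene in each LI library as a percent of the mean of the SI libraries of the same preparation, on a log axis with a dashed line at 1%. LI monolayers lie near 1% for all genes but Ang4, while LI crypts spread from 0.0857% for Defa17 to 38.8% for Ang4.

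Other products and regulators of Paneth cells were taken from lists that were chosen with earlier results of these data known. The other 22 tested alpha-defensins were all higher in SI, by a median log2 fold change of 8.17 in crypts and 6.61 in monolayers. Defa-ps4, Defa-ps16 and Defa-ps18 had 0 counts in every LI library. They passed the filter on low counts through SI alone, so their direction was set beforehand. Defa-ps1, Defa-ps7 and Defa28 had at most 2 counts in any LI library. The filter on LI libraries alone was run for the 8 members only. Among genes named Defa, the 3 most abundant others were Defa21, Defa5 and Defa2. They averaged 16515, 13242 and 7502 normalized counts in SI crypts and 38806, 15112 and 9340 in SI monolayers. Of 15 tested other Paneth products, 8 were higher and 3 lower in SI crypts than in LI crypts, 11 higher and 2 lower in SI monolayers than in LI monolayers, and 1 higher and 9 lower in SI monolayers than in SI crypts. Of all tested genes, 11.6% were higher and 11.1% lower in the first of these comparisons, 12.4% and 8.88% in the second and 9.71% and 16.4% in the third. AY761184, a defensin-like gene of the same cluster, was higher in SI crypts by 8.59. Mptx1, which encodes a pentraxin, was lower in SI crypts by 5.71 on the log2 scale (means of 3299 in SI crypts and 177722 in LI crypts) and fell with culture in both organs. Cd24a, a surface protein of Paneth and other crypt cells, had 0.47 between SI and LI crypts, below the fold threshold, and fell by 1.29 in SI monolayers. Lyz2, the lysozyme of macrophages and other phagocytes, is 95.1% identical to Lyz1 in coding sequence. It averaged 3012 normalized counts in SI crypts, 2710 in SI monolayers, 485 in LI crypts and 41.0 in LI monolayers. Lyz2 was 1.34% to 1.56% of Lyz1 in SI, 2.23% in LI monolayers and 59.8% on average in LI crypts. The LI crypts held 25.7%, 78.0% and 75.8% in replicates 1 to 3. Of the stretches of 50 bases in Lyz2, 15.4% also occur in Lyz1. How many Lyz2 counts came from reads of Lyz1 was not tested. Lyz2 was not called in SI monolayers against SI crypts (-0.12) and was lower in LI monolayers against LI crypts (-3.51). Of 10 genes listed as macrophage markers, which could bear on Lyz2, 3 were higher and 5 lower in SI monolayers. Ptprc fell by 4.58 and Mrc1 rose by 5.45, while C1qa averaged 49.65 in SI crypts and 14.17 in SI monolayers, and Adgre1 9.35 and 1.84. In LI monolayers 2 were higher and 6 lower, where 14.5% and 23.5% of all tested genes were. The part of these genes in the Lyz2 level was not tested.

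The regulators did not divide by organ as the products did. Of 14 regulators, 2 were higher and 4 lower in SI crypts than in LI crypts, and 4 were higher and none lower in SI monolayers than in LI monolayers, where 11.6% and 11.1% of all tested genes were higher and lower in crypts and 12.4% and 8.88% in monolayers. Sox9, a Wnt target needed for Paneth cells, was higher in SI monolayers than in LI monolayers by 1.12. Gfi1 was higher by 1.49 and Bhlha15 by 2.73, and both are transcription factors of secretory cells. Chrm3 was higher too, by 2.15 (Sox9, Gfi1, Bhlha15 and Chrm3 were named after their values were seen). The other 10 regulators were not called in monolayers, among them Atoh1 (0.81) and Ern2 (-0.17). In SI crypts against LI crypts, Sox9 (-0.44) and Gfi1 (-0.78) lay below 0 and short of the fold threshold. Bhlha15 was higher there by 1.63 and Chrm3 by 1.37. The 4 regulators lower in SI crypts were Ern2 (-1.87), Nod2 (-1.52), Atoh1 (-1.45) and Ephb3 (-1.20). The 3 most abundant, Xbp1, Fzd5 and Spdef, had differences of -0.06, 0.69 and -0.86 between SI and LI crypts and 0.41, 0.66 and 0.09 between SI and LI monolayers, none past the fold threshold. In SI monolayers against SI crypts 2 of 14 regulators were lower, Gfi1 (-1.03) and Chrm3 (-1.12), and none was higher, where 16.4% of all tested genes were lower and 9.71% higher, so the count is near the background.

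The genes whose levels were most like those of the 8 members over the 12 libraries were ranked among 13775 genes by Pearson's r with the members' mean standardized log2 level. They were Habp2 (r = 0.987), which encodes a serine protease, Defa-ps18 (0.986), Defa3 (0.985), Rnf144b (0.984), Gm14851 (0.983), Agmat (0.983), Defa37 (0.982) and Defa36 (0.982). Defa3 holds 92% of the stretches of 50 bases of the member Defa17, so its likeness can come in part from shared reads. Defa36 and Defa37 have identical coding sequences and are not independent entries. Gm14851 holds 29.6% of the stretches of Defa29 and averaged 56295 normalized counts in SI crypts. The 12 points fall into SI and LI, so that r mainly describes the difference between organs. Over the 6 SI libraries alone r was 0.991 for Gm14851, 0.984 for Defa37, 0.953 for Habp2, 0.815 for Rnf144b and 0.154 for Agmat, and these libraries share their depth and preparation in 2 sets of 3.

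Markers of other cells of the intestine give the setting of these values. Of 12 SI enterocyte markers, 12 were higher in SI crypts and 11 in SI monolayers than in the LI libraries of the same preparation, among them Apoa1 (7.38 and 4.84), Sis (8.01 and 6.05) and Slc5a1 (3.87 and 3.74). Of all tested genes, 11.6% were called higher in SI crypts and 12.4% in SI monolayers. In SI monolayers against SI crypts 9 of the 12 were lower, with a median log2 fold change of -2.80 against -1.15 for the 8 Paneth cell products, and Apoa1 (-1.41) and Sis (-1.24) were not called. Of all tested genes, 16.4% were called lower and 9.71% higher in this comparison, which is also that of the next 3 lists. Of 6 stem cell markers, 2 were lower in SI monolayers, among them Olfm4 (-6.09), while Smoc2 (-0.76) and Rnf43 (0.33) were not called. Of 10 macrophage markers, 3 were higher and 5 lower in SI monolayers, and Cd14 rose by 1.05. Of 6 mesenchymal markers, 1 was lower in SI monolayers and none higher, a count near the background. Col1a1, Col1a2 and Col3a1 had 0.67, -0.15 and -1.14 and were not called. Large intestine markers fell in LI monolayers against LI crypts in 5 of 6 cases, with Car1 at -5.19, Hoxb13 at -2.94 and Aqp8 at -1.28, where 23.5% of all tested genes were called lower.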

How the data were processed

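Per the labels and the study's methods, RNA of 12 libraries was sequenced in pairs on an Illumina HiSeq, and the authors aligned reads to GRCm38 with STAR 2.7.9a and counted them on GENCODE M25 genes with featureCounts 2.0.2. Strandedness, the unit counted per pair and the treatment of reads that match several genes are not given in the sources used here. The authors deposited the table of counts, whole numbers per gene, and a table of normalized signal, in which counts are divided by 1 DESeq2 size factor per library (0.850 to 1.12). Of 55487 genes, 55141 were named from GENCODE M21 on the same build, among them all 8 members.

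Counts were tested with edgeR 4.0.16 (filterByExpr, TMM, robust glmQLFit and glmQLFTest, in 1 model of 4 group means) in R 4.3.3, with Benjamini-Hochberg adjustment over 19581 genes. The standard error is the log2 fold change divided by the square root of F. The fits were tested on simulated data. Groups came from sample titles, with 3 libraries each, of 59016196 to 76216530 counts. Normalized values were used for levels and proportions. The coding sequences and stretches of 50 bases are from GENCODE M21 transcripts.

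The members and lists were chosen with earlier results of these data known. Named are all members, the 3 genes of each other list with the highest mean normalized count, Lyz2 and the 8 genes most correlated with the members, and others are named as examples after their values were seen. Alternatives were DESeq2 1.42.0, upper quartile scaling, no filter or at least 10 counts in 3 libraries, no minimum fold change, halved counts, fits of 2 groups alone, a replicate block, each library left out, TMM-scaled CPM and the share without Itln1.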

Additional observations from a re-analysis of the deposited data

Results flagged for a closer look

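The change of Ang4 with culture differed between the organs. The log2 fold change in monolayers against crypts was -3.37 (SE 0.59) in SI and -6.08 (SE 0.69) in LI, and the interaction was 2.71 (SE 0.80, edgeR adjusted p = 0.0225), with lower levels in 3 of 3 monolayer libraries than in every crypt library of the same organ. The adjusted p lay above 0.05 when SI crypts replicate 2, LI crypts replicate 2 or LI monolayers replicate 1 was left out (0.0510 to 0.0547).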

How the results depend on the processing

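All 8 genes were called higher in SI than in LI in crypts and in monolayers under each alternative run, except Ang4 in crypts as given above. In SI monolayers against SI crypts, where 1 member was called, 2 were called with halved counts and 3 with DESeq2, and 1 to 3 with a library left out. In LI monolayers against LI crypts 2 were called in the fit of the 2 groups and with DESeq2, and 1 to 2 with a library left out. For the interaction the count was 0 to 3 with a library left out. Calls added by DESeq2 were Defa17 (-1.85) and Itln1 (-1.26) in SI and Mmp7 (-2.06) in LI, and the fit of 2 groups added Defa22 in LI (1.12, adjusted p = 0.00854). The causes were not tested. Values near 0 changed sign: Lyz1 in SI monolayers against SI crypts was -0.043 with upper quartile scaling, -0.0092 with halved counts, -0.033 with DESeq2 and -0.37 to 0.68 with a library left out (below 0 without SI crypts replicate 1 or 2). With a library left out, Defa24 in SI was -0.99 to 0.38, Defa17 in LI -0.023 to 1.85, and the interaction -0.89 to 0.49 for Defa22, -0.63 to 0.54 for Itln1 and -0.16 to 1.57 for Mmp7. The sign turned without SI crypts replicate 3 for Defa24, Defa22 and Itln1, without LI crypts replicate 2 for Mmp7 and without LI crypts replicate 3 for Defa17 and Itln1. The median LI percent of the 8 genes in crypts was 0.380 to 0.966 with a library left out, the latter without SI crypts replicate 3. With a library left out, an addition chosen after the data were seen, the share of all counts was 0.765% to 1.89% in SI crypts (the former without replicate 3) and moved by less than 1 SD in the other groups. Without Itln1 it was 0.730% in SI monolayers and 0.00717% in LI monolayers. Same-numbered libraries did not deviate together (r of -0.05 to 0.06). With 3 libraries per group this cannot show whether they share a mouse, which the sources used here do not say. With the replicate number as a block, 40 of 40 member calls stayed as they were. The genes called over all genes changed from 5110 to 5017 in SI monolayers against SI crypts and from 4446 to 4383 in SI against LI crypts. Of the recomputed fold changes of members, 571 kept their direction and their side of the threshold, 12 passed it, 6 fell below it and 11 changed sign. The grouped alpha-defensins were recomputed as an addition chosen after the data were seen, and outside the fits that leave out a library the medians were 0.61 to 0.88 near Defa22 and -2.08 to -1.79 near Defa24, with 2 (2 groups alone) to 6 genes called lower near Defa24. The lowest count of a member in any library was 43, and the ratio of highest to lowest library had a median over the 8 genes of 5.33 in SI crypts, 4.10 in LI crypts, 1.36 in LI monolayers and 1.09 in SI monolayers.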
